A study of Mus musculus with 36 samples.

Results

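Primary microglia from wild-type mice were compared after 6 h in 500 U/ml interferon beta (IFN-b) and before any interferon was given, on 4 of the 36 Affymetrix expression arrays of the series. The members were chosen by their labels alone: the arrays titled Microglia_WT at 0 h and at 6 h that belong to the first 12 arrays of the series, with 2 biological replicates at each time. The other 8 of those 12 arrays hold wild-type microglia at 24 h and microglia of Usp18 knockout (KO) mice at 0, 6 and 24 h. They share the estimate of spread used for every test below. The rest of the series holds a second set of wild-type microglia arrays, microglia of mice with the Usp18_C61A change in the enzyme, and the mouse microglial cell line BV-2 after a control siRNA or an siRNA against Usp18, in 18 groups in all. The 0 h cells were left untreated in the same medium (DMEM GlutaMAX with fetal calf serum) and carried no transgene, deletion or siRNA according to the labels. The age and sex of the mice, and how many mice went into a culture, are unknown here, so the p-values measure the spread between these labelled replicates.

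Interferon beta is a type I interferon, secreted by many cells when they sense viral nucleic acid. It binds the receptor chains IFNAR1 and IFNAR2, whose kinases JAK1 and TYK2 phosphorylate STAT proteins, STAT2 among them. Together with IRF9 these form a complex that enters the nucleus, binds a DNA element called the interferon-stimulated response element (ISRE) and turns on many genes. Microglia, the resident macrophages of the brain, respond strongly to it. USP18, the enzyme the other groups of the series alter, is itself induced by interferon: it removes the ubiquitin-like protein ISG15 from its targets and, apart from that activity, holds back signalling at IFNAR2.

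All values below are log2 array intensities as deposited, and a difference of 1 is a 2-fold change. A difference is the mean of the 2 arrays at 6 h minus the mean of the 2 arrays at 0 h, with its standard error (±). Its p-value comes from limma, a linear model fitted to every gene at once, and is adjusted by the Benjamini-Hochberg method over the 7524 genes tested. "Rose" and "fell" are used only where that adjusted p is below 0.05. Genes were read by 1 probe set each, and a gene was tested where its probe set lay above the array median on at least 2 of the 12 arrays; 7524 of 12394 genes did. The medians of the 4 arrays lay between 5.66 and 5.82. Part of a low intensity is non-specific signal, so a fold change from such a start only approximates the change in RNA.

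The cells carried the genes that mark microglia and macrophages. All 14 of the listed markers on the array lay above the array median on each 0 h array and 13 on each 6 h array, with Csf1r, the receptor for the growth factor microglia depend on, at 13.34 and 13.25 at 0 h and 13.13 and 13.15 at 6 h. Of these 14, Ptprc, Spi1 and P2ry12 rose and Cx3cr1 and Tmem119 fell at 6 h. The call for Ptprc was lost without the 0 h replicate 1, 0 h replicate 2 or 6 h replicate 2 array (changes of 0.50, 0.65 and 0.51). None of 9 markers of monocytes and granulocytes and none of 10 lymphocyte markers lay above the array median on any of the 4 arrays. Some genes of other brain cells were present. Of 10 oligodendrocyte markers, 7 and 5 lay above the array median on the 0 h arrays and 8 and 7 on the 6 h arrays. Of 8 border macrophage markers, 5 did so on each of the 4 arrays. For 10 astrocyte, 9 neuron and 9 fibroblast and mural cell markers the counts lay between 0 and 3. The oligodendrocyte-lineage gene Olig1 read 9.77 and 8.82 at 0 h and 9.52 and 8.29 at 6 h, and the smooth muscle gene Acta2 read 8.46 and 6.25 at 0 h and 7.85 and 6.25 at 6 h, with the higher value in replicate 1 at both times. The replicates also differed in sex-linked genes: Xist, transcribed from the inactive X chromosome, read 10.75 and 5.42 at 0 h and 10.27 and 5.11 at 6 h, and the Y-linked gene Eif2s3y read 6.11 and 8.18 at 0 h and 6.16 and 7.65 at 6 h. Replicate 1 was thus the array high in Xist and replicate 2 the array high in Eif2s3y at both times. For 1 RNA quality measure, the Gapdh control probe sets at the 3' minus the 5' end, the 0 h arrays read -0.39 and -0.44 and the 6 h arrays -0.69 and -0.52, and its part in the results was not tested. Correlations between replicates over the 7524 genes tested were 0.98 at 0 h and 0.972 at 6 h, against 0.831 to 0.858 between times.

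After 6 h of IFN-b, 894 genes rose (11.9% of the genes tested) and 955 fell (12.7%). These are the shares to set beside the list counts below. The rises were the larger changes. Of the genes that rose, 616 rose by at least 1 and 109 by at least 3, and the median rise was 1.34. Of those that fell, 437 fell by at least 1 and 5 by at least 3, with a median change of -0.96. The median over all genes on the array was -0.003, and over the genes tested -0.13. For comparison, both 6 h arrays lay above both 0 h arrays for 2078 genes (27.6%) and below both for 3178 (42.2%), and every gene that passed the test had such separated arrays. A count with 1 array left out assumes that the lone array of that group varies like the other groups. The count of rises was 561 without the 6 h replicate 2 array. The count of falls was 379 without the 0 h replicate 1 array, 342 without the 0 h replicate 2 array and 421 without the 6 h replicate 2 array, and 1580 when only the 6 wild-type arrays were fitted. In a paired fit, with the replicate number within each genotype as a block, 1331 genes rose and 2124 fell. The labels do not state such a pairing, and the paired value is given below where it changes a call or moves a count by more than 1.5 times. With each array shifted to a common median the split became 966 rises and 721 falls, because that step moved every difference up by 0.098.

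**Figure D1:**
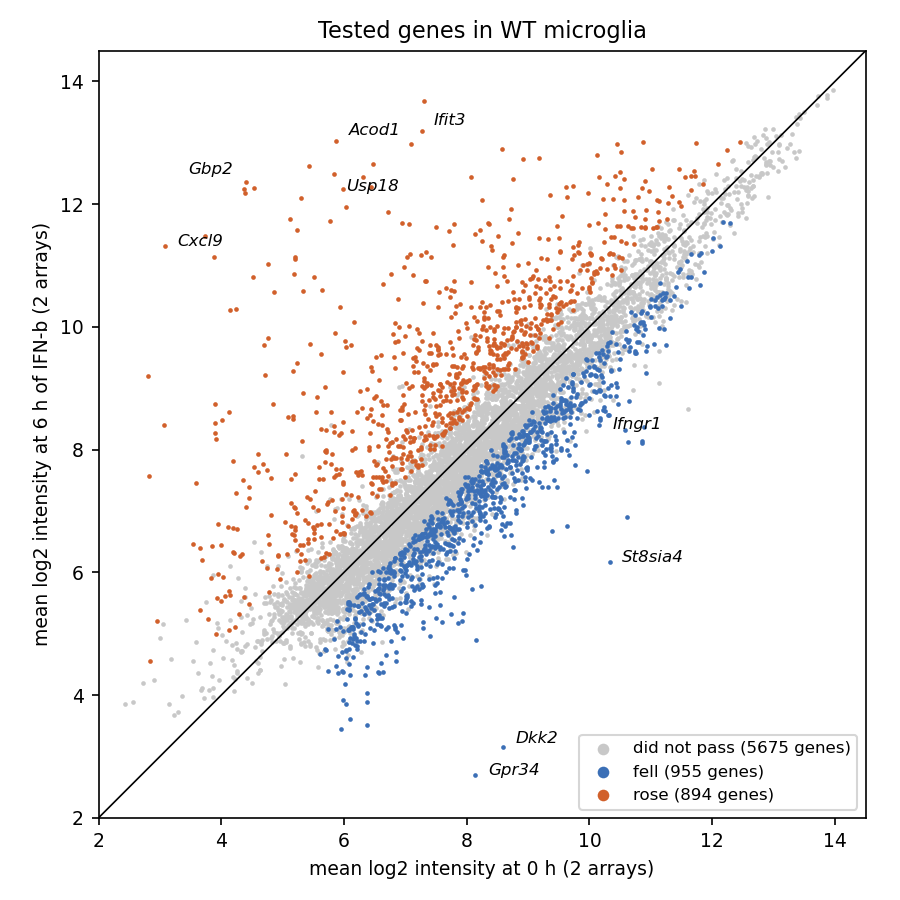
Mean log2 intensity of the 2 arrays at 0 h (horizontal axis) against the mean of the 2 arrays at 6 h (vertical axis) for the 7524 genes tested, each point a gene, with the diagonal where both are equal. Of the 894 genes that rose, 109 lie at least 3 above the diagonal, and 144 started below the lowest array median. Of the 955 that fell, 5 lie at least 3 below it.

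The largest rises came from genes that lay far below or near the array median before treatment. Cxcl9, a chemokine that draws activated T cells, read 3.14 and 3.02 at 0 h and 11.44 and 11.21 at 6 h, a difference of 8.25 ± 0.71 or 303-fold (adjusted p = 7.89e-05). Gbp2, a guanylate-binding GTPase that acts on pathogen-containing membranes, read 4.34 and 4.47 at 0 h and 12.18 and 12.54 at 6 h (7.96 ± 0.27, 248-fold, adjusted p = 2.58e-07). Iigp1, an immunity-related GTPase, read 4.10 and 4.64 at 0 h and 12.12 and 12.38 at 6 h (7.88 ± 0.24, adjusted p = 1.44e-07). In each of these genes the replicates of a time lay close together and the 2 times far apart.
The next 7 by size were Ccl12 (7.79 ± 0.32), a chemokine for monocytes, the antiviral GTPase Mx1 (7.74 ± 0.32), a further guanylate-binding protein gene, Gbp2b (7.72 ± 0.34), the HIN-200 family gene Ifi209 (7.26 ± 0.18), the chemokine Cxcl10 (7.18 ± 0.25), Acod1 (7.15 ± 0.33), whose enzyme makes itaconate, and the nucleotide kinase Cmpk2 (6.81 ± 0.18). Adjusted p for these 7 lay between 5.57e-08 and 1.8e-06.

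The largest falls were of a receptor, a secreted protein and a pair of enzymes that add sialic acid to surface proteins. Gpr34, a lysophosphatidylserine receptor found on resting microglia, read 7.33 and 8.95 at 0 h and 2.53 and 2.85 at 6 h, a difference of -5.45 ± 0.56 (adjusted p = 0.000260). Dkk2, a secreted Wnt antagonist, read 8.20 and 8.98 at 0 h and 2.98 and 3.33 at 6 h (-5.43 ± 0.46, adjusted p = 6.74e-05). Both went from above the array median to far below it. St8sia4, which builds polysialic acid, read 10.40 and 10.27 at 0 h and 6.44 and 5.88 at 6 h (-4.17 ± 0.30, adjusted p = 2.35e-05). St6gal1, another sialyltransferase, read 10.43 and 10.79 at 0 h and 6.66 and 7.12 at 6 h (-3.72 ± 0.69, adjusted p = 0.00489). These 2 sialyltransferases remained above the array median on all 4 arrays.
The remaining 6 of the 10 largest falls were Cytip (-3.26 ± 0.62), which binds the integrin regulator cytohesin, the iron exporter Slc40a1 (-2.88 ± 0.67), the histamine-degrading enzyme Hnmt (-2.86 ± 0.19), glutamine synthetase Glul (-2.74 ± 0.67), Arhgap18 (-2.73 ± 0.39), a GTPase-activating protein, and Ints6l (-2.72 ± 0.49), related to a subunit of the Integrator complex. The call for Cytip was lost without the 0 h replicate 1 array (adjusted p = 0.0512). For Slc40a1 it was lost without the 0 h replicate 1, 6 h replicate 1 or 0 h replicate 2 array (adjusted p = 0.0514, 0.0859 and 0.0985). The call for Glul was lost without the 0 h replicate 1, 0 h replicate 2 or 6 h replicate 2 array (adjusted p = 0.0585, 0.114 and 0.126).

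**Figure D2:**
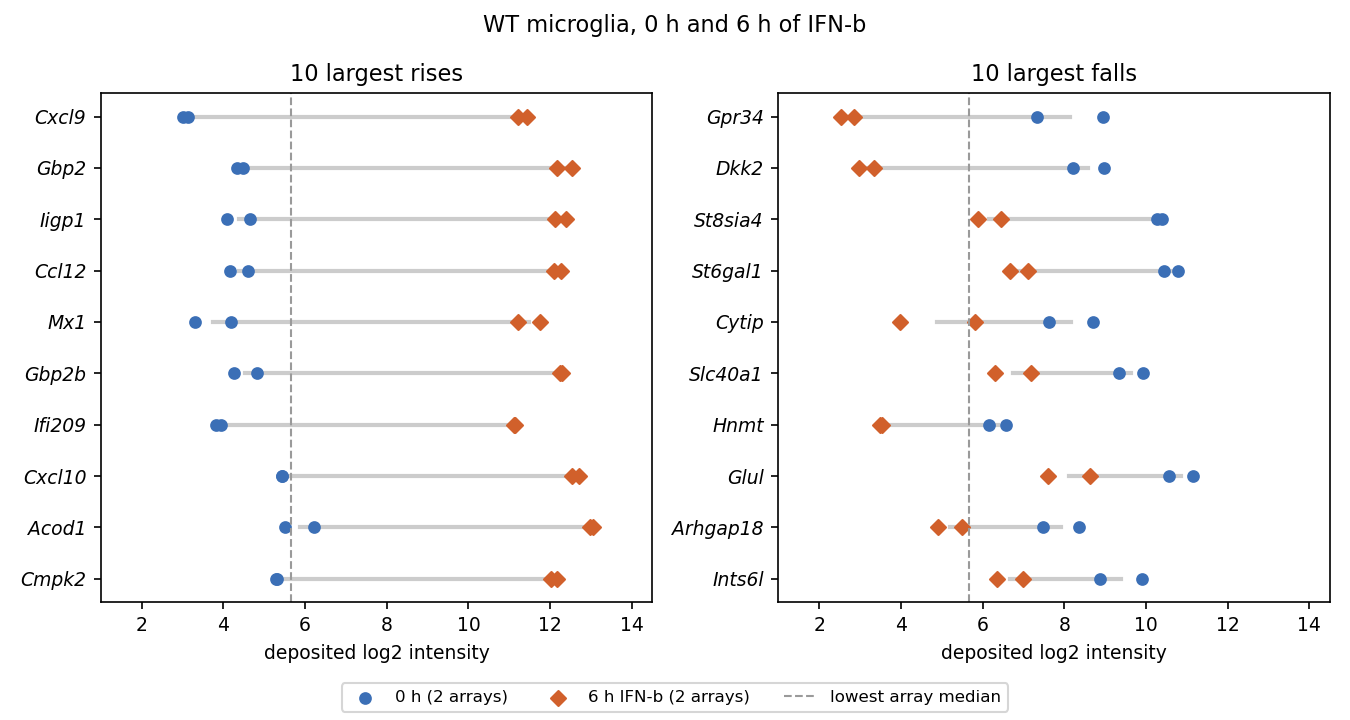
Log2 intensity on each of the 4 arrays for the 10 largest rises and the 10 largest falls; circles (0 h) and diamonds (6 h) are single arrays, a grey line joins the 2 means and the dashed line marks the lowest of the 4 array medians, 5.66. In every one of the 20 genes both arrays of one time lie apart from both arrays of the other.

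The receptor and its signalling chain changed unevenly. Of 14 genes of the receptor and JAK-STAT list on the array, 5 rose and 1 fell of 13 tested, and the list's median change was 0.19. Beside these stand 11.9% of all genes tested that rose and 12.7% that fell. Stat2, a STAT of the ISRE-binding complex, read 5.91 and 5.97 at 0 h and 10.19 and 10.46 at 6 h (4.39 ± 0.16, adjusted p = 3.7e-07). Its partner Irf9 read 7.28 and 7.71 at 0 h and 8.59 and 8.83 at 6 h (1.21 ± 0.19, adjusted p = 0.00228). The kinases Jak2 (2.43 ± 0.18) and Tyk2 (1.51 ± 0.19) and Stat3 (1.09 ± 0.18) also rose. The receptor chains themselves did not pass the test: Ifnar1 read 8.41 and 8.67 at 0 h and 8.01 and 8.52 at 6 h (-0.28 ± 0.19, adjusted p = 0.305). Ifnar2 read 9.83 and 10.17 at 0 h and 9.73 and 10.02 at 6 h (-0.13 ± 0.18, adjusted p = 0.657). Ifngr1, the ligand-binding chain of the receptor for the other interferon type, gamma, was the 1 member that fell, from 10.06 and 10.29 to 8.32 and 8.63 (-1.70 ± 0.27, adjusted p = 0.00247). Its partner chain Ifngr2 read 10.60 and 10.45 at 0 h and 10.61 and 10.67 at 6 h and did not pass (adjusted p = 0.728).

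Of the 10 negative regulators of this signalling, 3 rose and none fell, with a median of 0.65. Usp18 read 5.68 and 5.99 at 0 h and 12.56 and 12.41 at 6 h, a difference of 6.65 ± 0.27 or 100-fold (adjusted p = 8.85e-07), so that a gene near the array median at 0 h was among the bright ones at 6 h. Socs1, which blocks JAK kinases, read 4.56 and 4.34 at 0 h and 7.34 and 7.43 at 6 h (2.94 ± 0.35, adjusted p = 0.000547), and the deubiquitinase Usp25 read 8.30 and 8.21 at 0 h and 10.17 and 9.77 at 6 h (1.71 ± 0.29, adjusted p = 0.00319). Among those that did not pass, Socs3 was higher on both 6 h arrays (5.98 and 5.73 at 0 h and 7.02 and 7.04 at 6 h, adjusted p = 0.206). So was the phosphatase gene Ptpn6 (10.66 and 10.62 at 0 h and 10.99 and 11.35 at 6 h, adjusted p = 0.0522). The phosphatase Ptpn11 did not differ beyond its spread (-0.030 ± 0.20, 95% interval -0.48 to 0.42). With only the 4 arrays or only the 6 wild-type arrays in the fit, 6 and 7 of these regulators rose. The paired fit gave 7 rises, with Ptpn6 among them (adjusted p = 0.0198).

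Of 6 interferon regulatory factors tested, 4 rose and none fell. Irf7, which amplifies the production of type I interferons, went furthest: it read 6.55 and 6.39 at 0 h and 12.48 and 12.82 at 6 h (6.18 ± 0.18, 72.3-fold, adjusted p = 1.41e-07). Irf1 (2.64 ± 0.18), Irf5 (1.75 ± 0.16) and Irf2 (1.25 ± 0.18) followed, Irf5 with its other probe set differing in sign. Irf3, which starts interferon production after viral sensing, read 8.98 and 8.91 at 0 h and 8.70 and 8.64 at 6 h (adjusted p = 0.173), and Irf8, needed for microglial identity, read 9.52 and 9.64 at 0 h and 9.40 and 9.89 at 6 h (adjusted p = 0.892); neither passed. The list's median over its 7 genes on the array was 1.25. Ifnb1 itself read 3.89 and 3.85 at 0 h and 4.18 and 4.06 at 6 h, below the array median throughout.

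Of 4 genes on the array that attach ISG15 to proteins or take it off again, 3 rose. These were Usp18, which takes it off, and 2 of the 3 that attach it. The conjugating enzyme Ube2l6 read 4.90 and 5.26 at 0 h and 8.46 and 8.59 at 6 h (3.45 ± 0.21, adjusted p = 9.85e-06). The activating enzyme Uba7 also rose (7.42 and 7.26 at 0 h and 10.56 and 10.95 at 6 h, 3.42 ± 0.16, adjusted p = 1.8e-06). Trim25, an E3 ligase, was higher on both 6 h arrays by 0.53 ± 0.20 but did not pass (adjusted p = 0.0804; 0.0105 in the paired fit).

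The antiviral effectors rose nearly as a whole list. Of 24 on the array and tested, 22 rose and none fell, against 11.9% of all genes tested, and the list's median change was 3.65 beside -0.003 over all genes. Mx1, which traps viral nucleocapsids, read 3.29 and 4.18 at 0 h and 11.22 and 11.74 at 6 h (7.74 ± 0.32, adjusted p = 8.91e-07). Isg20, an exonuclease that degrades viral RNA, read 4.95 and 5.30 at 0 h and 11.87 and 11.63 at 6 h (6.63 ± 0.30, adjusted p = 1.69e-06). Rsad2, which encodes viperin, an enzyme that makes a chain-terminating nucleotide, read 7.27 and 7.34 at 0 h and 13.69 and 13.67 at 6 h (6.38 ± 0.14, adjusted p = 5.57e-08), among the brightest genes of the 6 h arrays. The 3 Ifit genes, whose proteins bind foreign RNA ends, rose alike: Ifit3 by 5.93 ± 0.15, Ifit2 by 5.90 ± 0.18 and Ifit1 by 5.83 ± 0.15. The Oas family, sensors of double-stranded RNA that start RNA degradation, spread more widely, from 5.71 ± 0.34 for Oasl1 and 5.05 ± 0.34 for Oas3 down to 2.29 ± 0.44 for Oas1b. Eif2ak2, the kinase that halts translation on sensing double-stranded RNA, rose by 2.98 ± 0.20, and the RNA-editing enzyme gene Adar by 2.90 ± 0.21. The Ifitm genes, whose proteins block viral fusion, divided. Ifitm3 rose from a high start (11.70 and 11.77 at 0 h and 13.07 and 12.92 at 6 h, 1.25 ± 0.13). Ifitm2 read 12.18 and 12.24 at 0 h and 12.19 and 12.32 at 6 h (adjusted p = 0.919). Ifitm1 read 5.93 and 6.72 at 0 h and 6.09 and 7.05 at 6 h (adjusted p = 0.682). These were the 2 members that did not pass. No call of the 22 was lost when any of the 4 arrays was left out.

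All 9 interferon-inducible GTPases on the array rose, with a median of 6.13, the highest of the 23 lists. Besides Gbp2 and Iigp1, Gbp6 read 2.52 and 3.08 at 0 h and 9.10 and 9.29 at 6 h (6.40 ± 0.29, adjusted p = 1.53e-06). Gbp3 read 4.86 and 4.68 at 0 h and 11.14 and 10.91 at 6 h (6.26 ± 0.34, adjusted p = 4.61e-06). Gbp7 (5.96 ± 0.20) and Ifi47 (6.13 ± 0.15) were close to them. Igtp (4.38 ± 0.16), Irgm2 (4.10 ± 0.15) and Irgm1 (3.85 ± 0.17) rose less from higher starting levels, between 6.62 and 8.09 on the 0 h arrays. All 9 calls held with any of the 4 arrays left out.

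Poly-ADP-ribosyl transferases, tripartite-motif proteins and Schlafen genes behaved similarly: 14 of 15 tested rose, none fell, and the median over 16 on the array was 2.77. Slfn1, a Schlafen gene that restrains T cell growth, read 2.96 and 3.17 at 0 h and 8.41 and 8.39 at 6 h (5.33 ± 0.33, adjusted p = 1.05e-05) and Slfn4 3.83 and 3.96 at 0 h and 9.14 and 8.36 at 6 h (4.85 ± 0.70, adjusted p = 0.00147). The nuclear-body gene Sp100 (3.59 ± 0.25) and Parp14 (3.36 ± 0.23) followed. Slfn8 read 6.01 and 5.57 at 0 h and 10.07 and 6.74 at 6 h and did not pass (adjusted p = 0.147), and was high on the 6 h replicate 1 array only. It passed in the paired fit (adjusted p = 0.00341).

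To show what these genes have upstream of their starts, the 250 bases before the RefSeq transcription start (assembly GRCm38.p6) were searched on both strands for the ISRE core, spelled GAAANNGAA, where N is any base. Promoters were matched by gene symbol for 732 of the 894 genes that rose. A promoter was read for 8 of the 10 largest rises. Of these, 4 held a match (Cxcl9, Gbp2, Gbp2b and Cxcl10) and 4 held none (Ccl12, Ifi209, Acod1 and Cmpk2). Irf7 held none either. No promoter was read gene by gene for Iigp1 and Mx1, so whether theirs hold a match is unknown here. That reading left out a chromosome which the group counts below include. The following stretches, picked because they hold a match, are shown for 6 genes that rose and, as a contrast, for Cytip, which fell; each is printed 5' to 3' on the gene's own strand, with matches on either strand in capitals.
Ifit3, chr19:34583279-34583528, plus strand: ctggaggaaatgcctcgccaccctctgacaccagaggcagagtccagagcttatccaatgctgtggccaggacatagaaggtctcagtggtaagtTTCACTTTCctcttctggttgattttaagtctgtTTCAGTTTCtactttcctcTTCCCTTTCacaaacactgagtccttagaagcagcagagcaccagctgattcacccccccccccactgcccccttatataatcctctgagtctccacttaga
Gbp3, chr3:142559794-142560043, plus strand: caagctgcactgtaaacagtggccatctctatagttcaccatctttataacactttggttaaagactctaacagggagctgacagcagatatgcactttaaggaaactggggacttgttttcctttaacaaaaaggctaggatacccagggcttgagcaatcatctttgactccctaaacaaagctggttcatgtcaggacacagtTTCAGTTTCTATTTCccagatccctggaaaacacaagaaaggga
Gbp2, chr3:142620413-142620662, plus strand: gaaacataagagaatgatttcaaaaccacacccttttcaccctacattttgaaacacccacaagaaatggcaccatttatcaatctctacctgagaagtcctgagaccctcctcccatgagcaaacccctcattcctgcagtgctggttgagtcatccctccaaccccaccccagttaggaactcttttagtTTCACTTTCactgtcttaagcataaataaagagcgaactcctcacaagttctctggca
Rsad2, chr12:26456453-26456702, minus strand: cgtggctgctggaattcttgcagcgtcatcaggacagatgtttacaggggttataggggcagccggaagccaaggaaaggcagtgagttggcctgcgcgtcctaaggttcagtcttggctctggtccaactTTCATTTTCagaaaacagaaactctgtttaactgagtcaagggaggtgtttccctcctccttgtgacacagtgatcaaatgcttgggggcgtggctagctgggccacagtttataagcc
Cxcl10, chr5:92348890-92349139, minus strand: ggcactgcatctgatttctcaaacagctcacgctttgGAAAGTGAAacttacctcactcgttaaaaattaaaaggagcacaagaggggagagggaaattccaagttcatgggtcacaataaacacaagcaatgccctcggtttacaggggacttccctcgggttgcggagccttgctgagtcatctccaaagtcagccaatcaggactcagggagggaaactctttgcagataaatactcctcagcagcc
Socs1, chr16:10785537-10785786, minus strand: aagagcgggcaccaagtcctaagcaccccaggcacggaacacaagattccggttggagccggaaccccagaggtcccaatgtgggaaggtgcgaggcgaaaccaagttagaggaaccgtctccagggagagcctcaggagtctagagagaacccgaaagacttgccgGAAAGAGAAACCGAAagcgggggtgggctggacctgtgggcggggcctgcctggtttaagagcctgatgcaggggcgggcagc
Cytip, chr2:58160123-58160372, minus strand: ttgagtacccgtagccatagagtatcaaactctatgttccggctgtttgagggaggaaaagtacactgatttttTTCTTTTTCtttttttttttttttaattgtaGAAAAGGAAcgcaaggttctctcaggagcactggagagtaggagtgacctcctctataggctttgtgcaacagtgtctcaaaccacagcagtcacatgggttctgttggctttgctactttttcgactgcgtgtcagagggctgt
Ifit3 has 3 matches, with their first bases at -155, -121 and -102 from the start site, and Gbp3 a pair of overlapping ones at -44 and -38, while a second Gbp3 promoter in the table has none. Gbp2 has 1 at -58, Rsad2 1 at -119 and Cxcl10 1 at -213, and Socs1 an overlapping pair at -83 and -77. Cytip, a gene that fell, also has 2, at -176 and -145, so a match was also present upstream of a gene that fell.

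Over whole groups, the ISRE core was found in 29 of 107 promoters of genes that rose by at least 3 (27.1%), in 94 of 990 of all genes that rose (9.5%). It was found in 42 of 995 of genes that fell (4.22%) and in 356 of 6025 of tested genes that passed in neither direction (5.91%). The share over all 32851 promoters of the same length was 7.13%. By list, 8 of 10 GTPase promoters held it, 10 of 27 of antiviral effectors, 4 of 19 of class I presentation genes, 3 of 13 of chemokines and 0 of 21 of homeostatic microglia genes. The GAS core TTCNNNGAA, the element bound by STAT dimers, was in 8 of 107 promoters of the strongest rises (7.48%). It was in 5.28% of those of tested genes that passed in neither direction and 7.02% of all promoters. By list, 5 of 10 GTPase promoters held the GAS core, 6 of 27 of antiviral effectors, 2 of 19 of class I genes, 2 of 21 of homeostatic genes and 0 of 13 of chemokines. The AP-1 element TGACTCA was in 17 of the 107 promoters of the strongest rises (15.9%). It was in 3.14% of those of tested genes that passed in neither direction and 4.46% of all promoters. These counts describe letters in a window, and several genes contribute more than 1 promoter.

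Sensors of viral and bacterial nucleic acid rose in most cases. Of 16 on the array, 11 rose and 1 fell, beside 11.9% and 12.7% of all genes tested, with a median of 2.04. Ifi209 and Mndal (4.13 ± 0.29), relatives of the DNA-binding HIN-200 proteins, and Zbp1, which senses Z-form nucleic acid and starts necroptosis (4.85 and 5.55 at 0 h and 11.19 and 11.08 at 6 h, 5.93 ± 0.25, adjusted p = 1.13e-06), rose most. The RNA helicases Dhx58 (4.10 ± 0.21) and Ifih1 (3.83 ± 0.18) and the endosomal receptor Tlr3 (3.76 ± 0.27) rose by about the same amount. Sting1, the adaptor for cyclic dinucleotides made on sensing DNA, read 7.18 and 7.73 at 0 h and 9.08 and 9.71 at 6 h (1.94 ± 0.28, adjusted p = 0.00141). Tlr2, a receptor for bacterial lipoproteins, read 10.48 and 10.28 at 0 h and 10.84 and 11.18 at 6 h (adjusted p = 0.246). Tlr4, the receptor for lipopolysaccharide, read 7.95 and 8.26 at 0 h and 8.59 and 8.16 at 6 h (adjusted p = 0.436); neither passed. The call for Aim2 was lost without the 0 h replicate 2 array (adjusted p = 0.0630), and that for Tlr7 without the 0 h replicate 1 or 6 h replicate 2 array (adjusted p = 0.0916 and 0.0808). Mavs, the mitochondrial adaptor of the RNA helicases, was the member that fell (-0.63 ± 0.20, adjusted p = 0.0469), a call lost with any 1 of the 4 arrays left out (adjusted p between 0.0825 and 0.192).

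Chemokines gave some of the largest changes of all. Of 19 on the array 15 were tested, 13 rose and none fell, and the median over the 19 was 2.14. Without the intensity filter all 19 were tested, and 13 rose and 1 fell. The 3 ligands of CXCR3, a chemokine receptor of T cells, rose together. Beside Cxcl9 these were Cxcl10 (5.43 and 5.45 at 0 h and 12.70 and 12.53 at 6 h, adjusted p = 3.25e-07) and Cxcl11 (4.95 and 4.10 at 0 h and 11.01 and 10.61 at 6 h, 6.29 ± 0.62, adjusted p = 0.000191). The chemokines for monocytes rose too, with Ccl12 at 4.16 and 4.60 at 0 h and 12.26 and 12.09 at 6 h. Ccl2 stood at 6.66 and 6.77 at 0 h and 11.94 and 11.81 at 6 h (5.16 ± 0.53) and Ccl7 at 5.29 and 5.07 at 0 h and 11.18 and 10.53 at 6 h (5.68 ± 0.78). Ccl5, which acts on T cells and monocytes, read 6.31 and 5.66 at 0 h and 12.31 and 12.19 at 6 h (6.26 ± 0.31, adjusted p = 2.55e-06). Ccl3 (1.50 ± 0.27) and Ccl4 (2.14 ± 0.28) were already bright at 0 h, above 10.2, and rose less. The neutrophil chemokine Cxcl2 did not pass (8.06 and 7.85 at 0 h and 8.25 and 8.35 at 6 h, adjusted p = 0.754), nor did Ccl6, whose replicates differed more than the times (9.06 and 10.34 at 0 h and 9.23 and 10.44 at 6 h). Cxcl1 lay below the array median on all 4 arrays and was not tested. The call for Ccl9 was lost without the 0 h replicate 1, 0 h replicate 2 or 6 h replicate 2 array (adjusted p = 0.133, 0.0874 and 0.157); the other 12 were kept when each array was left out in turn.

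Among 20 cytokines and inflammatory enzymes on the array, 9 rose and none fell of 15 tested (median 1.42). Acod1 read 6.23 and 5.52 at 0 h and 12.98 and 13.06 at 6 h (adjusted p = 1.8e-06) and stood with the brightest genes at 6 h. Il1rn, the antagonist of the interleukin-1 receptor, read 5.35 and 5.92 at 0 h and 10.56 and 10.63 at 6 h (4.96 ± 0.63, adjusted p = 0.000809), and Il18bp, which neutralises interleukin-18, rose by 3.06 ± 0.47. Interleukin-1 beta itself read 7.96 and 7.61 at 0 h and 8.78 and 8.33 at 6 h and did not pass (adjusted p = 0.148), while Il18 rose by 1.93 ± 0.18. Il15 and the chain that presents it, Il15ra, rose together, by 3.64 ± 0.34 and 3.34 ± 0.30. Tnfsf10, the death ligand TRAIL, read 4.08 and 3.72 at 0 h and 8.42 and 8.45 at 6 h (4.54 ± 0.39, adjusted p = 8.48e-05). Tnf read 7.72 and 7.60 at 0 h and 10.59 and 10.66 at 6 h (2.97 ± 0.33, adjusted p = 0.000354). Il6 (2.32 and 2.53 at 0 h and 4.35 and 3.35 at 6 h), Il10 (4.35 and 4.30 at 0 h and 5.51 and 5.02 at 6 h) and Nos2 (3.97 and 4.53 at 0 h and 4.35 and 4.43 at 6 h) stayed below the array median on all 4 arrays and did not pass. Il10 did in the paired fit (adjusted p = 0.0200).

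Molecules that microglia show to T cells rose in 7 of 8 tested cases. Cd40, the receptor for the T cell ligand CD154, read 5.19 and 5.23 at 0 h and 11.28 and 10.94 at 6 h (5.90 ± 0.36, adjusted p = 9.66e-06). Cd274, the checkpoint ligand PD-L1, read 6.12 and 6.22 at 0 h and 9.99 and 10.16 at 6 h (3.90 ± 0.35, adjusted p = 9.5e-05). Cd86, a ligand of CD28, read 7.48 and 8.0 at 0 h and 10.56 and 10.64 at 6 h (2.86 ± 0.38, adjusted p = 0.00101). Stimulating and inhibiting ligands were thus both higher. Cd80, the other CD28 ligand, lay below the array median (3.80 and 3.79 at 0 h and 3.80 and 3.75 at 6 h) and was not tested. Cd47, the signal against being eaten, rose by 1.10 ± 0.18, while its receptor Sirpa read 11.55 and 12.05 at 0 h and 10.99 and 11.41 at 6 h and did not pass (adjusted p = 0.106; 0.00601 in the paired fit).

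Of 14 NF-kB pathway genes 7 rose and none fell (median 1.22). The paired fit gave 12 rises. Those that rose included the inhibitors Nfkbie (5.75 and 5.62 at 0 h and 7.62 and 7.96 at 6 h, 2.11 ± 0.25, adjusted p = 0.000498) and Nfkbib (1.64 ± 0.26), the kinase Ikbke (1.81 ± 0.29) and the subunit Relb (1.44 ± 0.23). Rela, the main activating subunit, did not pass (9.57 and 9.37 at 0 h and 9.49 and 9.86 at 6 h, adjusted p = 0.423), nor did Nfkbia, a prompt target of the pathway (11.98 and 11.75 at 0 h and 12.63 and 12.15 at 6 h, adjusted p = 0.154; 0.0116 in the paired fit). The adaptor Traf1 (2.93 ± 0.78) passed, but not with any 1 of the 4 arrays left out (adjusted p between 0.0848 and 0.114). The subunit gene Nfkb2 was also lost without the 0 h replicate 1, 0 h replicate 2 or 6 h replicate 2 array (adjusted p = 0.136, 0.147 and 0.233).

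Genes of cell death rose in 9 of 13 tested cases and fell in 1 (median 1.05), beside 11.9% and 12.7% of all genes tested. Daxx, a transcriptional corepressor linked to Fas signalling, read 8.08 and 8.17 at 0 h and 11.42 and 11.60 at 6 h (3.38 ± 0.17, adjusted p = 2.55e-06). The inflammatory caspase Casp4 read 8.37 and 8.63 at 0 h and 11.44 and 11.52 at 6 h (2.98 ± 0.26) and Casp1 9.08 and 9.57 at 0 h and 11.35 and 11.51 at 6 h (2.11 ± 0.26). The initiator Casp8 rose by 1.36 ± 0.16. The death receptor Fas also rose (4.33 and 4.35 at 0 h and 6.13 and 6.46 at 6 h, 1.96 ± 0.34, adjusted p = 0.00344). Mcl1, which protects from death, rose by 0.92 ± 0.15, and Bcl2l11, which promotes it, was the member that fell (9.25 and 9.53 at 0 h and 7.67 and 8.12 at 6 h, -1.50 ± 0.27, adjusted p = 0.00428). Both promoters and inhibitors of death were therefore among the rises. The call for the necroptosis kinase gene Ripk3 was lost without the 0 h replicate 1, 0 h replicate 2 or 6 h replicate 2 array (adjusted p = 0.139, 0.152 and 0.228).

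Of 15 class I genes on the array 9 rose and none fell (median 1.58), and of 7 tested class II genes none passed in limma (median 0.51 over 8 on the array), with 3 higher and none lower at an unadjusted p under 0.05. In the paired fit 4 of the 7 class II genes and 12 of the 15 class I genes rose. Whether the 2 lists differ was not tested. All 9 class I rises were of the machinery that cuts and loads peptides. The peptide pump Tap1 read 6.73 and 7.24 at 0 h and 10.86 and 11.09 at 6 h (4.0 ± 0.20, adjusted p = 2.45e-06) and Tap2 rose by 2.93 ± 0.18. The immunoproteasome subunits Psmb9 (8.09 and 8.64 at 0 h and 11.75 and 11.60 at 6 h, 3.31 ± 0.24), Psmb10 (2.66 ± 0.16) and Psmb8 (2.48 ± 0.17) rose as well. The presenting molecules started near the top of the range, with H2-D1 at 12.76 and 12.88 at 0 h and 13.01 and 13.26 at 6 h (0.31 ± 0.15, adjusted p = 0.170). B2m, their light chain, read 12.76 and 12.97 at 0 h and 13.20 and 13.23 at 6 h (0.35 ± 0.13, adjusted p = 0.0839). In both, each 6 h value lay above each 0 h value, and neither passed. In the paired fit B2m did (adjusted p = 0.0498). In class II, Cd74, the invariant chain, read 6.24 and 6.86 at 0 h and 7.25 and 8.34 at 6 h (1.25 ± 0.45, adjusted p = 0.0771; 0.000476 in the paired fit), with replicate 2 the higher at both times. H2-Aa, H2-Ab1 and H2-Eb1 lay at 5.32 or lower on all 4 arrays.

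Of 13 complement genes 5 rose and none fell (median 0.30), led by Cfb, factor B of the alternative pathway, at 3.71 and 4.33 at 0 h and 8.54 and 8.44 at 6 h (4.47 ± 0.54, adjusted p = 0.000600). C2 (2.13 ± 0.36), the inhibitor Serping1 (2.07 ± 0.18) and the protease C1ra (1.56 ± 0.29) rose from low levels; with all 24 microglia arrays in the fit none of these 3 passed (adjusted p = 0.0536, 0.488 and 0.345), and 2 of the 13 rose. The call for C3ar1 was lost without the 0 h replicate 1, 0 h replicate 2 or 6 h replicate 2 array (adjusted p = 0.0979, 0.0874 and 0.109). The 3 C1q chains were bright throughout and did not pass, with C1qa at 12.92 and 12.93 at 0 h and 12.96 and 13.08 at 6 h. Of 26 phagocytosis and lysosome genes 3 rose and none fell (median -0.05). The high-affinity antibody receptor Fcgr1 read 10.42 and 10.47 at 0 h and 12.86 and 13.09 at 6 h (2.53 ± 0.17, adjusted p = 2.02e-05). Axl, a receptor for dying cells, read 7.60 and 8.17 at 0 h and 9.98 and 10.77 at 6 h (2.49 ± 0.35, adjusted p = 0.00133). The third was Lgals3bp (9.93 and 10.01 at 0 h and 11.97 and 12.40 at 6 h, 2.22 ± 0.17, adjusted p = 4.37e-05). Mertk, the related receptor for dying cells, read 8.81 and 9.24 at 0 h and 8.62 and 8.59 at 6 h and did not pass (adjusted p = 0.156). Of all genes tested 11.9% rose.

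Of 17 tested genes that mark microglia at rest, 2 rose and 3 fell, with a median of -0.18 over 19 on the array. Of all genes tested 11.9% rose and 12.7% fell. Besides Gpr34, the fractalkine receptor Cx3cr1 read 10.78 and 10.71 at 0 h and 9.81 and 9.35 at 6 h (-1.16 ± 0.32, adjusted p = 0.0293) and Tmem119 read 6.41 and 5.93 at 0 h and 4.97 and 4.95 at 6 h (-1.21 ± 0.33, adjusted p = 0.0270). P2ry12, the ADP receptor that guides microglial processes, rose instead, from 6.75 and 7.14 to 8.49 and 8.82 (1.71 ± 0.19, adjusted p = 0.000385), and so did the interleukin-10 receptor gene Il10ra (1.41 ± 0.26, adjusted p = 0.00517). The call for Cx3cr1 was lost without the 0 h replicate 1, 0 h replicate 2 or 6 h replicate 2 array (adjusted p = 0.123, 0.111 and 0.173). The call for Tmem119 was lost with any 1 of the 4 arrays left out (adjusted p between 0.0884 and 0.115; not tested in 2 of these fits). The count of falls was 1 without the 0 h replicate 1, 0 h replicate 2 or 6 h replicate 2 array; it was 6 with only the 4 or only the 6 wild-type arrays in the fit, and 6 in the paired fit. In the fit of all 24 microglia arrays neither P2ry12 (adjusted p = 0.258) nor Tmem119 (adjusted p = 0.145) passed. On bulk arrays, fewer cells of a type and less RNA per cell cannot be told apart.

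The markers of other cells were read beside these changes. The 3 endothelial genes tested rose: Kdr, the receptor for vascular growth factor, read 4.73 and 4.64 at 0 h and 7.74 and 7.81 at 6 h (3.09 ± 0.38, adjusted p = 0.000700). Flt1, a related receptor, read 5.75 and 6.15 at 0 h and 8.22 and 8.31 at 6 h (2.32 ± 0.29, adjusted p = 0.000741). Cdh5, the junction protein VE-cadherin, rose by 1.04 ± 0.25, a call lost without the 0 h replicate 1, 0 h replicate 2 or 6 h replicate 2 array (adjusted p = 0.0750, 0.0980 and 0.110). The other 6 endothelial markers, such as Cldn5 and Pecam1, were not tested, and the median change over the 9 on the array was 0.40. Of the 9, 0 and 1 lay above the array median on the 0 h arrays and 2 on each 6 h array. A gene below the median at 0 h was tested only through other arrays where it was brighter. The count of 3 rises therefore follows in part from the filter. The summed linear intensity of the 9 went from 174 and 193 to 635 and 684. Among 10 oligodendrocyte genes Cnp alone passed (10.34 and 10.25 at 0 h and 12.23 and 12.44 at 6 h, 2.04 ± 0.17, adjusted p = 5.61e-05). Their summed intensity went from 3138 and 2320 to 6229 and 6435, while the lineage-defining Olig1 did not pass (adjusted p = 0.831). Of 10 astrocyte genes Glul fell and Aldh1l1 rose (1.14 ± 0.23), the latter lost without the 6 h replicate 2 array (adjusted p = 0.0508) and differing in sign from its other probe set; their sum went from 1918 and 2570 to 825 and 545, with Glul the brightest on each array. None of 5 border macrophage markers tested passed in limma, and none at an unadjusted p under 0.05, with Mrc1 at 9.10 and 9.72 at 0 h and 9.97 and 10.31 at 6 h (adjusted p = 0.534); Pf4 fell in the paired fit (adjusted p = 0.0242). The part of any such cells in the results was not tested.

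Of 24 genes of cholesterol synthesis and handling, 5 fell and 3 rose, beside 12.7% and 11.9% of all genes tested, and the median was -0.85. The share of rises was thus near that of all genes. On both 6 h arrays 19 of the 24 lay lower than on both 0 h arrays, beside 42.2% of all genes tested. The falls were of Stard4, a sterol carrier (7.68 and 7.44 at 0 h and 5.57 and 5.38 at 6 h, -2.08 ± 0.34, adjusted p = 0.00278), and of 4 others. These were the synthesis enzymes Msmo1 (9.78 and 9.50 at 0 h and 8.14 and 8.17 at 6 h, -1.48 ± 0.31), Mvd (-1.26 ± 0.29) and Lss (-0.94 ± 0.27), and the lysosomal exporter Npc1 (-1.04 ± 0.19). Enzymes such as Sqle (8.91 and 8.19 at 0 h and 7.47 and 6.95 at 6 h) and Idi1 (8.62 and 8.05 at 0 h and 6.81 and 6.40 at 6 h) were also lower on both 6 h arrays but did not pass (adjusted p = 0.216 and 0.0597). The members that rose were Ch25h, which makes the antiviral 25-hydroxycholesterol (9.50 and 9.95 at 0 h and 12.21 and 12.37 at 6 h, 2.57 ± 0.36, adjusted p = 0.00121), and 2 others. They were the exporter Abcg1 (8.92 and 9.15 at 0 h and 10.69 and 10.88 at 6 h, 1.75 ± 0.23, adjusted p = 0.00104) and the oxysterol receptor Nr1h3 (1.07 ± 0.28). Msmo1 was lost without the 0 h replicate 1 or 6 h replicate 2 array (adjusted p = 0.0681 and 0.0525), and the count of falls was 2 without either of those arrays. It was 13 with only the 4 arrays, or only the 6 wild-type arrays, in the fit, and 16 in the paired fit.

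Of 25 cell division genes tested 6 fell and 3 rose, with a median of -0.62 over 26 on the array, and 16 lay lower on both 6 h arrays. Beside these stand 12.7% of all genes tested that fell, 11.9% that rose and 42.2% that lay lower on both 6 h arrays, so the share of rises was that of all genes. The median of the members tested was -0.68, and -0.27 without the 0 h replicate 1 array. The paired fit called 14 falls. The replication helicase subunit Mcm7 read 9.54 and 9.01 at 0 h and 8.17 and 7.65 at 6 h (-1.37 ± 0.25, adjusted p = 0.00489). The mitotic checkpoint kinase gene Bub1 read 6.95 and 6.51 at 0 h and 5.69 and 5.45 at 6 h (-1.16 ± 0.32, adjusted p = 0.0281). Pcna, the sliding clamp of DNA polymerase, read 12.36 and 12.40 at 0 h and 12.24 and 12.37 at 6 h and did not pass (adjusted p = 0.737). The rises were of the G1 cyclins Ccnd2 (8.28 and 7.54 at 0 h and 9.62 and 9.39 at 6 h, 1.60 ± 0.35) and Ccnd1 (10.27 and 10.02 at 0 h and 12.07 and 11.32 at 6 h, 1.55 ± 0.45) and the cell cycle inhibitor Cdkn1a (0.99 ± 0.26). This list depended on single arrays. Of its 9 calls, 1 (Mcm7) was kept whichever array was left out; 1 member fell without the 0 h replicate 1 array and 2 without either 6 h array. No member rose without the 0 h replicate 2 array, and 1 did without any other of the 4. Ccnd1 was lost with any 1 of the 4 arrays left out (adjusted p between 0.0557 and 0.173). Ccnd2 was lost without the 6 h replicate 1 or 0 h replicate 2 array (adjusted p = 0.0606 and 0.0919). Bub1 was lost with any 1 of the 4 arrays left out (adjusted p between 0.0671 and 0.144; not tested in 2 of these fits). With only the 4 arrays in the fit 11 members fell.

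Of 18 tested stress genes 10 rose and 2 fell (median 1.26 over 19), beside 11.9% and 12.7% of all genes tested. The share of falls was thus near that of all genes. The rises included Atf4, the transcription factor of the integrated stress response (9.86 and 9.62 at 0 h and 11.30 and 11.31 at 6 h, 1.57 ± 0.20, adjusted p = 0.000861), and genes it is known to drive. Chac1, which breaks down glutathione, read 4.76 and 4.43 at 0 h and 8.35 and 7.51 at 6 h (3.34 ± 0.39, adjusted p = 0.000492). Asns, asparagine synthetase, followed (7.69 and 6.68 at 0 h and 9.89 and 9.41 at 6 h, 2.47 ± 0.36, adjusted p = 0.00164). The heme-degrading enzyme gene Hmox1 read 10.47 and 10.73 at 0 h and 9.66 and 9.94 at 6 h (-0.81 ± 0.15) and fell. The chaperone gene Dnajb9 also fell (8.78 and 8.89 at 0 h and 7.56 and 7.45 at 6 h, -1.33 ± 0.17). Xbp1 read 11.25 and 11.15 at 0 h and 11.01 and 11.16 at 6 h (adjusted p = 0.682). Atf4, Chac1, Asns and Dnajb9 were the 4 of these 12 calls kept whichever array was left out. The count of rises was 4 without either 0 h array, 6 without the 6 h replicate 1 array and 3 without the 6 h replicate 2 array. Gadd45b (2.56 ± 0.56) was lost without the 0 h replicate 1, 6 h replicate 1 or 6 h replicate 2 array (adjusted p = 0.0809, 0.0527 and 0.0567). Trib3 (2.40 ± 0.75) was lost with any 1 of the 4 arrays left out (adjusted p between 0.0877 and 0.198).

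Of 15 immediate early genes tested 3 rose and 1 fell (median 0.06 over 17), beside 11.9% and 12.7% of all genes tested, so neither share stood far from that of all genes. Dusp2, a phosphatase for MAP kinases, read 6.17 and 5.51 at 0 h and 8.45 and 8.32 at 6 h (2.54 ± 0.35, adjusted p = 0.00120) and the AP-1 subunit Junb read 8.34 and 7.94 at 0 h and 9.90 and 9.82 at 6 h (1.72 ± 0.32, adjusted p = 0.00480). Fos read 11.80 and 10.83 at 0 h and 10.58 and 10.49 at 6 h and did not pass (adjusted p = 0.0939; 0.0163 in the paired fit). Zfp36 (1.23 ± 0.27), which destabilises cytokine mRNA, was lost without the 0 h replicate 2 or 6 h replicate 2 array (adjusted p = 0.0790 and 0.0729). Egr2 was the fall (5.41 and 6.79 at 0 h and 3.50 and 3.72 at 6 h, -2.49 ± 0.76). It was lost with any 1 of the 4 arrays left out (adjusted p between 0.0579 and 0.141; not tested in 1 of these fits) and under 4 other settings, with adjusted p between 0.0540 and 0.0592.

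In the metabolism of arginine, tryptophan, NAD and sugar 9 of 12 tested genes rose and none fell (median 1.34 over 14). The list also holds the nucleotide kinase gene Cmpk2, which belongs to none of these pathways and is counted among the 9. Cmpk2 read 5.28 and 5.30 at 0 h and 12.02 and 12.18 at 6 h (adjusted p = 5.57e-08). Gch1, which starts the synthesis of tetrahydrobiopterin, read 7.37 and 7.29 at 0 h and 11.17 and 11.28 at 6 h (3.89 ± 0.30, adjusted p = 4.2e-05). Nampt, the rate-limiting enzyme of NAD salvage, read 8.51 and 8.69 at 0 h and 10.94 and 11.02 at 6 h (2.38 ± 0.14, adjusted p = 9e-06). The glucose transporter Slc2a1 rose by 1.11 ± 0.19. Ido1, the tryptophan-degrading enzyme often raised by interferon, lay at 3.32 or lower on all 4 arrays and was not tested. Arg1 was higher on both 6 h arrays (3.61 and 5.30 at 0 h and 6.57 and 7.86 at 6 h, 2.76 ± 0.73) and lost its call without the 0 h replicate 1 or 6 h replicate 2 array (adjusted p = 0.159 and 0.162). The count of rises was 4 without the 0 h replicate 1 array and 5 without the 6 h replicate 2 array. Across the 15 of the 23 lists in which no member fell in limma, 3 of 193 tested members were lower at an unadjusted p under 0.05. These lists were picked by the same fit, so a low count follows in part from the choice. A gene in more than 1 list is counted in each. In the paired fit 2 phagocytosis, 1 co-stimulation and 1 metabolism gene fell.

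**Figure D3:**
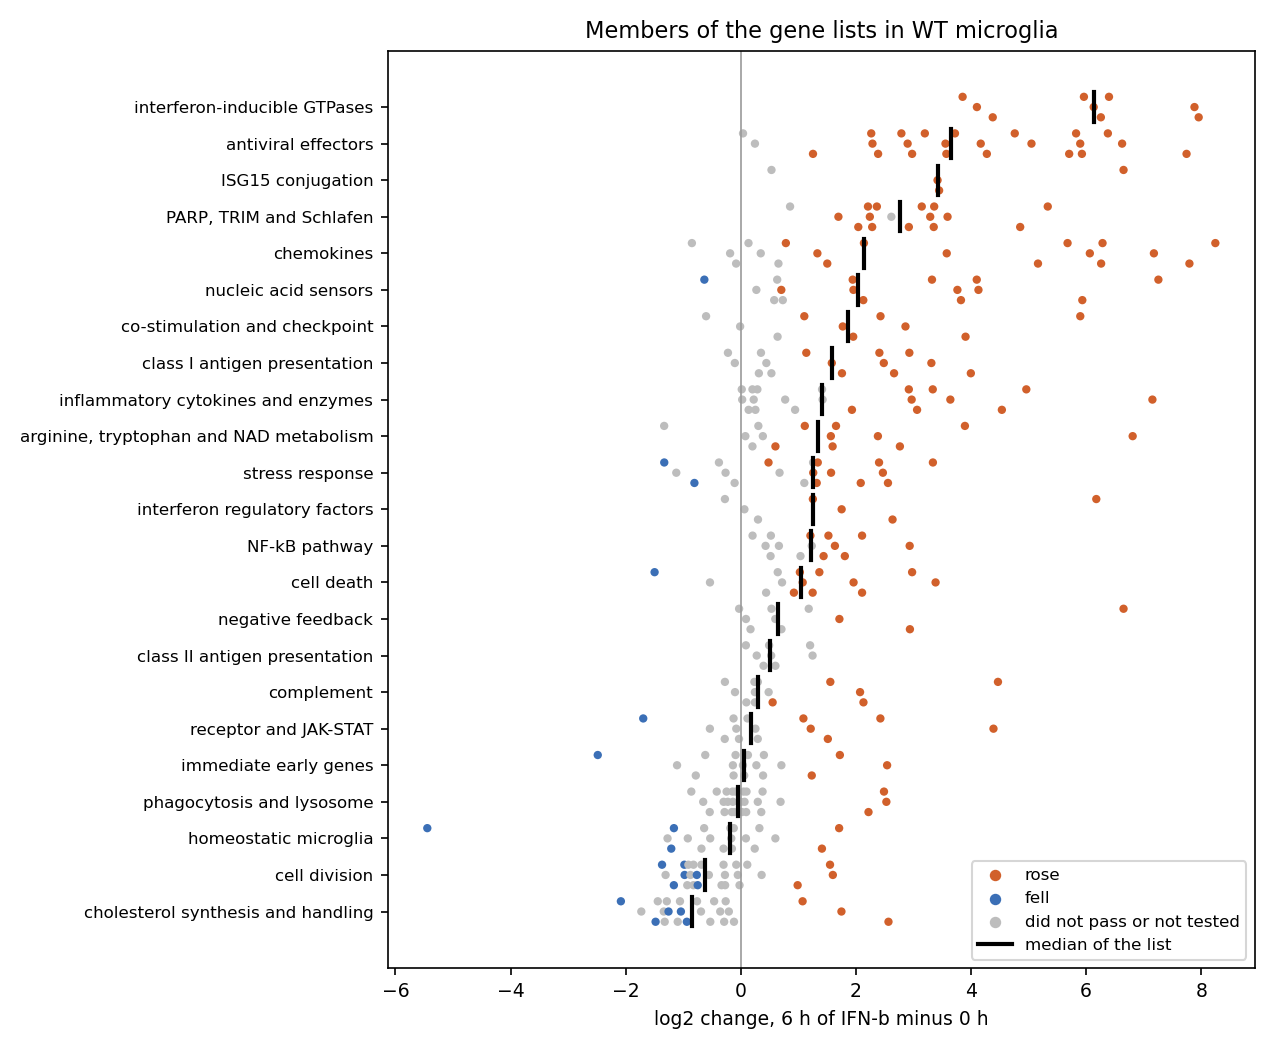
Log2 difference, 6 h minus 0 h, of every member on the array for the 23 gene lists, 1 row a list in order of its median (black bar), with colours for members that rose, fell or passed in neither direction. Interferon-inducible GTPases sit highest with a median of 6.13 and cholesterol genes lowest with -0.85, and the vertical line marks 0.

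Values at 24 h were available from 2 more wild-type arrays of the same set and are given beside the 6 h values without a test. Ccl5 read 12.47 and 12.61, Slfn1 9.10 and 8.76 and Irf7 12.53 and 12.74, all near or above their 6 h values. Cxcl10 had come down to 8.24 and 9.10, Acod1 to 8.71 and 8.71 and Tnf to 7.61 and 7.43, the last of these near its 0 h level. Usp18 lay between, at 11.15 and 10.71. Of the genes that fell, St8sia4 read 9.58 and 9.08 and Gpr34 6.21 and 5.94, nearer to their 0 h levels than at 6 h. Others stayed low: Cytip read 5.03 and 4.85 at 24 h, close to its 6 h mean, and Hnmt 4.23 and 4.35, nearer to its 6 h than to its 0 h mean. H2-D1, which did not pass at 6 h, read 13.52 and 13.45 at 24 h.

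The wild-type response was set against 3 others by testing the difference of the 2 responses (6 h minus 0 h) gene by gene. The second set of wild-type arrays carries the same labels and stands later in the series, beside the Usp18_C61A arrays. Between the sets 69 of 7924 genes differed (0.871%), 45 with the larger value in the first set and 24 in the second. On the second set's arrays labelled untreated Gbp2 read 12.02 and 9.04, against 4.34 and 4.47 in the first set. Whether the labels or the state of the cultures differed was not tested. The array at 12.02, 0 h replicate 1, was doubted. Without it and 1 further array doubted from earlier results of these data (Usp18_C61A, 6 h replicate 2), 18 genes differed. Single arrays set the size of this count. It was 28, 5, 111 and 23 without the first set's 0 h replicate 1, 0 h replicate 2, 6 h replicate 1 and 6 h replicate 2 array. It was 8, 634, 8 and 26 without the same arrays of the second set. Without its 0 h replicate 1 array, the second set's list medians were -0.25 for stress, 0.21 for NF-kB and 0.15 for metabolism. In the first set these were 1.26, 1.22 and 1.34. Other lists moved in both sets, with 2.76 for antiviral effectors and 3.64 for GTPases in the second, against 3.65 and 6.13. Whether the list medians differ between the sets was not tested.

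Several of the 10 genes named for this comparison stood at another level at 0 h. Gpr34 read 2.48 and 2.76 at 0 h and 2.81 and 2.62 at 6 h in the second set, a difference of responses of -5.54 ± 0.66 (adjusted p = 0.00104; -5.40 and 0.0131 without the 2 doubted arrays). Dkk2 read 2.74 and 2.76 at 0 h and 2.67 and 2.83 at 6 h (-5.43 ± 0.51, adjusted p = 9.8e-05) and St8sia4 4.58 and 4.60 at 0 h and 3.53 and 3.99 at 6 h (-3.34 ± 0.42, adjusted p = 0.00165). All 3 were thus below the array medians before interferon in the second set, where the first set started high. Acod1 read 13.23 and 11.77 at 0 h and 13.04 and 13.02 at 6 h (6.62 ± 0.57, adjusted p = 6.07e-05). Ccl5 read 10.20 and 7.98 at 0 h and 10.96 and 9.88 at 6 h (4.93 ± 0.85, adjusted p = 0.0143). Both had higher 0 h values than in the first set. Slfn1 read 4.27 and 2.81 at 0 h and 4.71 and 5.52 at 6 h (3.76 ± 0.60, adjusted p = 0.0103), and there the 6 h values were the lower ones. These 3 had adjusted p = 4.62e-05, 0.0375 and 0.0481 without the 2 doubted arrays. Leaving out single arrays ended the call for Ccl5 (adjusted p up to 0.0861) and Slfn1 (up to 0.0614) but not for Acod1, Gpr34, Dkk2 and St8sia4.

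The Usp18 knockout arrays belong to the same 12 as the wild-type ones. The 6 h response differed between the genotypes for 300 of 7524 genes (3.99%), 251 with the smaller value in the knockout. The 2 responses share no array. Usp18 itself read 4.40 and 3.77 at 0 h and 6.42 and 5.85 at 6 h in the knockout, below the wild type at both times. The largest differences were of interferon genes that the untreated knockout already carried at high levels. Iigp1 read 12.16 and 11.58 at 0 h and 12.61 and 12.53 at 6 h (-7.19 ± 0.34, adjusted p = 6.41e-06). Gbp2 read 12.15 and 11.33 at 0 h and 12.75 and 12.41 at 6 h (-7.12 ± 0.38, adjusted p = 1.31e-05). Cxcl10 read 12.63 and 12.37 at 0 h and 12.95 and 12.95 at 6 h (-6.72 ± 0.35, adjusted p = 1.31e-05). At 6 h the Gbp2 values of the 2 genotypes overlapped, and those of Iigp1 and Cxcl10 were the higher in the knockout. Among the falls, Dkk2 read 3.10 and 4.59 at 0 h and 2.68 and 3.02 at 6 h (4.44 ± 0.64, adjusted p = 0.00566), low at both times. Gpr34 read 2.51 and 4.07 at 0 h and 2.62 and 2.56 at 6 h (4.74 ± 0.80, adjusted p = 0.0125), a call lost without the wild-type 6 h replicate 1 array (adjusted p = 0.0571). With pairing 935 genes differed. Without pairing the count was 155, 164, 194 and 162 without the wild-type 0 h replicate 1, 0 h replicate 2, 6 h replicate 1 and 6 h replicate 2 array, and 167 without the knockout 0 h replicate 1 array.

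BV-2 cells with a control siRNA responded by less for many of these genes. The response differed for 299 of 7973 genes (3.75%), 184 with the smaller value in BV-2. The 2 responses share no array, and cell type and array set cannot be told apart. Cxcl9 read 3.01 and 2.91 at 0 h and 3.30 and 3.72 at 6 h (-7.70 ± 0.96, adjusted p = 0.000446). Gbp2b read 3.01 and 2.80 at 0 h and 2.85 and 2.88 at 6 h (-7.76 ± 1.40, adjusted p = 0.00651). Cxcl11 read 3.87 and 3.94 at 0 h and 3.51 and 3.98 at 6 h (-6.44 ± 0.95, adjusted p = 0.00220), and Acod1 9.87 and 10.85 at 0 h and 11.38 and 11.92 at 6 h (-5.86 ± 0.66, adjusted p = 0.000318). The first 3 stayed at the bottom of the range in BV-2 cells, and Acod1 started high. Other genes moved in both. Mx1 read 3.47 and 3.31 at 0 h and 9.23 and 9.48 at 6 h, a difference of responses of -1.78 ± 1.16 (95% interval -4.24 to 0.68, adjusted p = 0.430). Cxcl10 read 4.43 and 4.69 at 0 h and 10.73 and 11.19 at 6 h, a difference of -0.77 ± 0.52 (95% interval -1.88 to 0.33, adjusted p = 0.444). Gpr34 (2.70 and 2.43 at 0 h and 2.57 and 2.25 at 6 h) and Dkk2 (2.87 and 2.81 at 0 h and 3.29 and 2.97 at 6 h) were low in BV-2 cells at both times. St8sia4 was expressed there and higher on both 6 h arrays (8.55 and 7.99 at 0 h and 9.04 and 8.83 at 6 h). The count was 141, 121 and 116 without the wild-type 0 h replicate 1, 0 h replicate 2 and 6 h replicate 2 array. It was 157, 123, 99 and 133 without the BV-2 0 h replicate 1, 0 h replicate 2, 6 h replicate 1 and 6 h replicate 2 array.

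**Figure D4:**
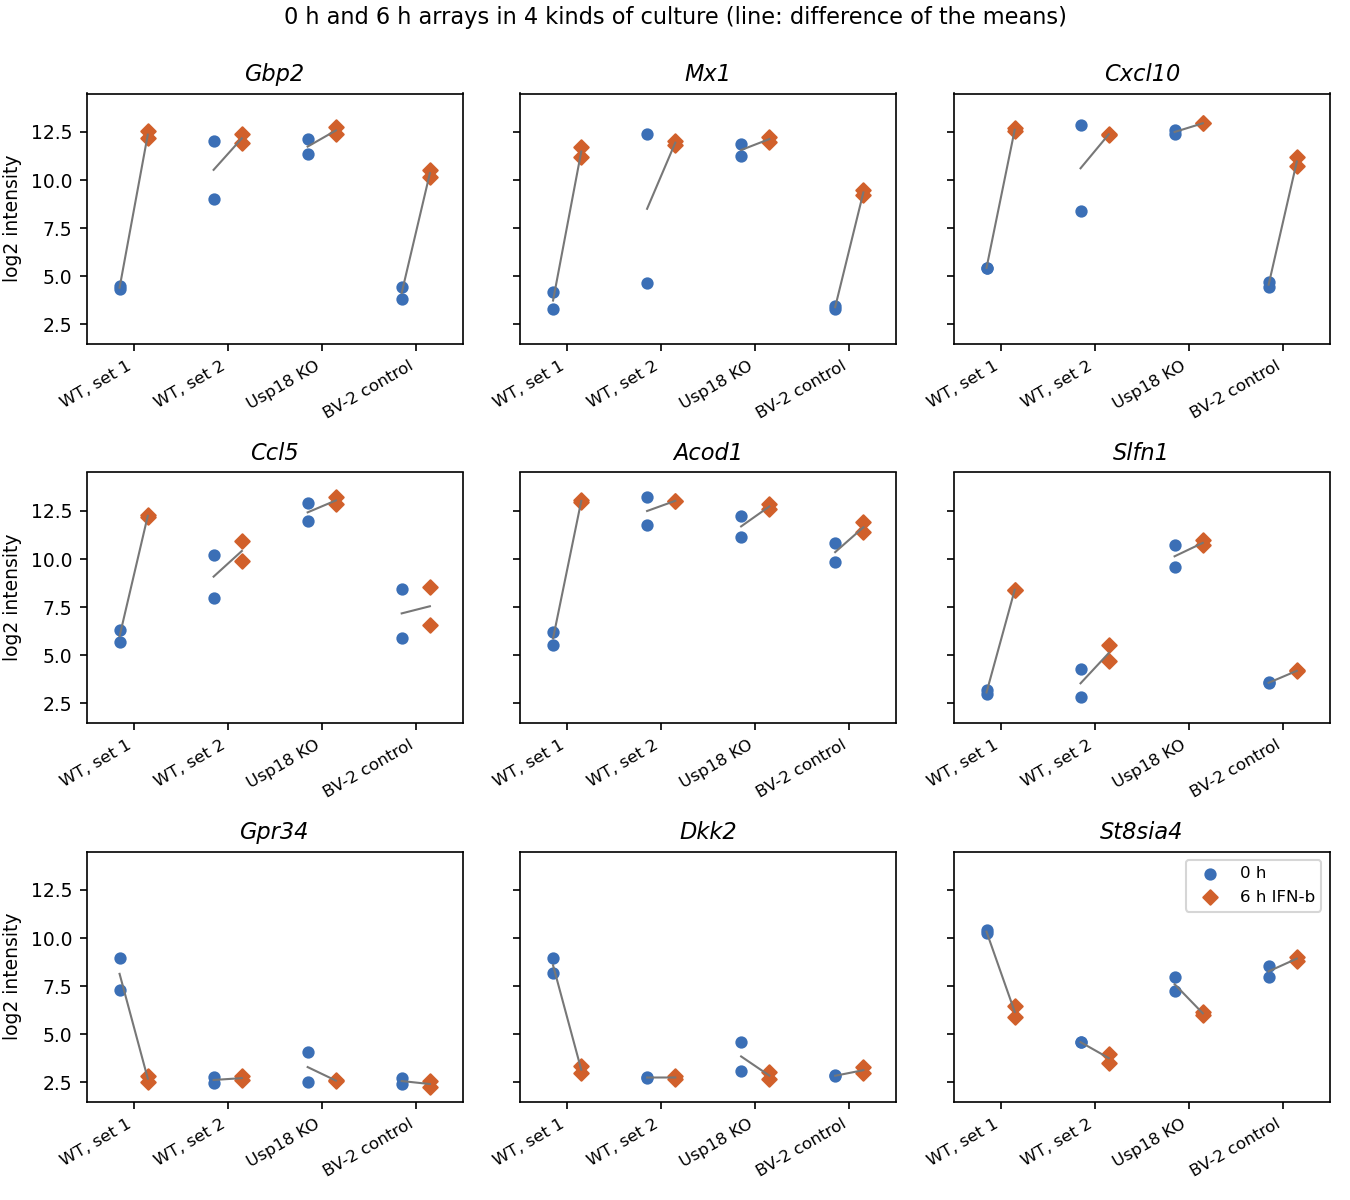
Log2 intensity of 9 genes on the 0 h and 6 h arrays of 4 cultures: wild-type microglia of the first (set 1) and of the second set (set 2), Usp18 knockout microglia and BV-2 cells with control siRNA; each circle (0 h) or diamond (6 h) is an array and lines join the means. Among these cultures Gpr34 and Dkk2 lie above the array medians at 0 h in the first wild-type set alone. Gbp2, Mx1 and Cxcl10 start high in the knockout. In the second wild-type set Gbp2 (12.02 and 9.04) and Cxcl10 (12.85 and 8.38) also start high, and Mx1 does on 1 array (12.37 and 4.64).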

How the data were processed

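RNA of the 36 cultures was measured on Affymetrix arrays with 22690 probe sets. The authors deposited 1 value per probe set and array; the values are taken to be on a log2 scale from their range, per the deposited table itself. The package affy is named in the submitters' processing notes without a version, and how probes were summarised and normalised is not given in the sources used here. Values were used as deposited. Probe sets were named through the platform annotation: 20393 had 1 gene, 691 several and 1606 were not listed. A gene was read by its probe set with the highest mean over the 12 arrays, giving 12394 genes.

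The 12 arrays (wild type and knockout, 3 times, 2 replicates) were fitted with group means in limma 3.58.1 (R 4.3.3) and eBayes, p-values were Benjamini-Hochberg adjusted, and 0.05 was the threshold. Differences between responses were interaction contrasts, for the second wild-type set over 24 arrays and for BV-2 over the 12 and the 12 BV-2 arrays. The number of arrays limits the precision: the median standard error was 0.226. The 4 arrays were not duplicates of each other (highest correlation 0.990 over all 22690 probe sets, which include those not tested). The labels do not say whether equal replicate numbers share a culture. Their deviations correlated at 0.394 to 0.662 between times within the wild type and 0.698 to 0.823 within the knockout, but at -0.080 to -0.067 between the genotypes, so the fit with the number within genotype as a block is printed beside the results it changes. The code was tested on simulated data. Promoters came from RefSeq (GRCm38.p6).

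Genes named are the 10 largest rises and falls, up to 4 members per list that passed and 2 that did not (the brightest), Usp18, the brightest markers, and up to 5 genes per direction in each other comparison. Further list members are named after their values were seen. The members and lists were chosen with earlier results of these data known. Probe sets of Irf2, Trim25, Nfkbib, Mcm7, Mbp, Acta2, S100a8, Xist, Irf3, Mndal, H2-D1, Trib3 and Cnp are marked by the maker as possibly matching related transcripts. Of the marker lists, those of neurons and of fibroblasts and mural cells had 4 members tested each and none passed in limma, nor at an unadjusted p under 0.05; the same held for 4 sex-linked genes. In the paired fit Tubb3 and Kdm5d fell and Postn rose. Alternatives were other scaling, filters, probe choice, arrays in the fit, prior, a replicate block and leaving out arrays.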

Additional observations from a re-analysis of the deposited data

Results flagged for a closer look

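The 6 h response of the first wild-type set differed from that of 3 other sets of arrays by a test of the difference itself (limma, Benjamini-Hochberg adjusted). Against the second wild-type set it differed in 69 genes (first minus second, log2): Acod1 by 6.62, Gbp2 by 6.32, Ccl5 by 4.93, Chac1 by 3.76, Slfn1 by 3.76, Gpr34 by -5.54, Dkk2 by -5.43, Hnmt by -3.70, St8sia4 by -3.34 and Slc46a3 by -2.45. Without the 2 doubted arrays, Chac1 and Slc46a3 no longer passed. With single arrays left out the adjusted p rose to 0.224 for Gbp2, 0.0861 for Ccl5, 0.0693 for Chac1, 0.0614 for Slfn1, 0.0760 for Hnmt and 0.0861 for Slc46a3, and stayed at or below 0.0150 for Acod1, Gpr34, Dkk2 and St8sia4.

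Against Usp18 knockout microglia 300 genes differed (knockout minus wild type). The difference was 4.74 for Gpr34, 4.44 for Dkk2, 4.35 for Cytip, 3.13 for Adamts1, an extracellular protease gene, and 2.78 for the mitotic kinase gene Melk. It was -7.19 for Iigp1, -7.18 for Mx1, -7.12 for Gbp2, -6.72 for Cxcl10 and -6.66 for Ifi209. With single arrays left out the calls for Gpr34 (adjusted p up to 0.0571), Cytip (up to 0.119) and Adamts1 (up to 0.122) were lost, and the other 7 were kept.

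Against BV-2 cells with control siRNA 299 genes differed (BV-2 minus wild type). The difference was 5.72 for Dkk2, 5.29 for Gpr34, 4.83 for St8sia4, 2.99 for Tcim and 2.95 for Ints6l. It was -7.76 for Gbp2b, -7.70 for Cxcl9, -6.44 for Cxcl11, -5.89 for Ccl5 and -5.86 for Acod1. With single arrays left out the calls for Ints6l (adjusted p up to 0.0606) and Ccl5 (up to 0.182) were lost, and the other 8 were kept.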

How the results depend on the processing

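The arrays entering the fit set the count of falls more than that of rises. Against 955 falls, 1580 were called with only the 6 wild-type arrays and 437 with a minimum change of 1. With single arrays left out the rises lay between 561 and 766 and the falls between 342 and 670. The differences between responses ranged from 5 to 634 genes for the second wild-type set (18 without the 2 doubted arrays), from 155 to 364 for the knockout and from 99 to 340 for BV-2. The cause was not tested.

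With replicate number within genotype as a block, 1331 genes rose, 2124 fell and 935 differed from the knockout, and 18 more of the named genes passed, among them Ptpn6, Trim25, B2m and Cd74; 4 class II, 12 NF-kB and 7 feedback genes rose and 6 homeostatic, 16 sterol and 14 cell division genes fell. No call among the named genes was lost under it.

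Of 99 named genes that passed, 83 were kept with each array left out in turn. Outside these, adjusted p crossed the threshold for Aldh1l1 (0.0767 with the mean of all probe sets, 0.335 with 24 arrays), Ccnd1 (0.0638) and Ccnd2 (0.0906) with the mean of all probe sets, Ccnd2 with 24 arrays (0.0842) and Trib3 without a filter (0.0573). With a filter of 6 arrays 1 homeostatic and 3 sterol genes fell.

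Signs changed only in genes that had not passed. Ptpn11 was 0.069 and Pcna 0.019 with centred arrays, Apoe 0 after quantile normalization, and Ptpn11 0.27 and Ctsb -0.10 with the mean of all probe sets. With single arrays left out, Ptpn11 ranged from -0.088 to 0.029, Irf8 from -0.18 to 0.31, Ifitm2 from -0.027 to 0.10, Ifitm1 from -0.23 to 0.72, Ccl6 from -0.50 to 0.77, Cst3 from -0.28 to 0.032, Ctsb from -0.088 to 0.13, Aldoc from -0.62 to 0.060, Olig1 from -1.01 to 0.22, Gad1 from -0.91 to 0.48, Acta2 from -1.41 to 0.81, Tagln from -1.28 to 0.58, Ms4a7 from -0.13 to 0.22, Stab1 from -0.72 to 0.21, Cd4 from -0.060 to 0.27, Xist from -3.06 to 2.26, Eif2s3y from -1.28 to 0.79 and Kdm5d from -2.30 to 0.10. Signal over background limits genes that start low: 144 that rose had a 0 h mean, and 173 that fell a 6 h mean, below the lowest array median.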

Other observations

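Some of the largest changes lay outside the lists and the rule for named genes and were chosen after their values were seen. Ms4a4c, a membrane-spanning family gene, read 5.12 and 5.34 at 0 h and 11.65 and 11.51 at 6 h (6.35 ± 0.21, adjusted p = 2.58e-07 in limma). Mmp13, a collagenase, read 5.54 and 6.52 at 0 h and 11.77 and 12.14 at 6 h (5.93 ± 0.38, adjusted p = 1.22e-05). Fgl2, a fibrinogen-like protein with a membrane-bound and a secreted form, read 5.39 and 5.64 at 0 h and 11.05 and 10.58 at 6 h (5.30 ± 0.61, adjusted p = 0.000472). Each rose from near or below the array median, with no overlap of the 2 times.

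Among the falls, Sesn1, a sestrin that restrains mTORC1 signalling, read 10.70 and 11.02 at 0 h and 8.10 and 8.19 at 6 h (-2.71 ± 0.37, adjusted p = 0.00120). Arrb1, a beta-arrestin that uncouples receptors from G proteins, read 7.87 and 8.02 at 0 h and 5.23 and 5.46 at 6 h (-2.60 ± 0.34, adjusted p = 0.000885). Idh1, the cytosolic NADP-dependent isocitrate dehydrogenase, read 10.86 and 10.92 at 0 h and 8.43 and 8.30 at 6 h (-2.52 ± 0.40, adjusted p = 0.00224). All 3 were well expressed before interferon and lower on both 6 h arrays.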
